A study of Mus musculus with 12 samples.

Results

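Chromatin accessibility in thymic iNKT1 cells was compared between Hivep3-/- and C57BL/6 mice by ATAC-seq, in which a transposase inserts sequencing adapters into open chromatin. The comparison covered the 54145 of 63309 regions of 500 bp that reached a mean of 5, on the linear scale, in 1 or both genotypes. It compared the 4 iNKT1 samples of the 12 samples in the series, 2 for each genotype. Variance was estimated from all 12 libraries. The same rule admitted 55049 regions in iNKT2 and 54311 in iNKT17 cells, which serve here as points of reference. All mice were untreated and 8 to 9 weeks old. The control group was wild-type C57BL/6. The Hivep3-/- mice had been crossed back to the C57BL/6 background. They were provided by another researcher, whereas the C57BL/6 mice were purchased, and littermate controls are not described in the sources used here. Other differences between the 2 lines therefore cannot be told apart from the loss of Hivep3. Thymi were pooled, and mice of both sexes were used in the study. From 5000 to 20000 cells of each subset were sorted, iNKT1 cells as CD122+ and ICOS-, and the subsets were then mixed to 50000 to 100000 cells for a common transposition. Because transposition destroyed the CD122 signal, iNKT1 cells were recovered in a second sort only as cells without ICOS and CD138. Titles of the samples number single mice, and the sources used here do not state whether the 2 libraries of a genotype came from separate pools. The tests therefore rest on the spread between the 2 libraries within each of the 6 groups, which may be technical.

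Hivep3, also called Schnurri-3, belongs to a small family of very large zinc-finger proteins that bind NF-κB-like motifs and the recombination signal sequences of antigen receptor genes, and that also act as adapters in signalling. Invariant natural killer T cells carry a semi-invariant T cell receptor, recognise lipids on CD1d and mature in the thymus into subsets under the transcription factor PLZF, the product of Zbtb16. The iNKT1 subset is defined by T-bet, the product of Tbx21, makes interferon-γ and keeps less PLZF than iNKT2 cells.

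The following sequences are examples of elements that gained or lost accessibility, and they need not be typical. Each is 300 bases of the plus strand of mm10 from an intron. Those of Cd247 (chr1:165816317-165816616), Grap2 (chr15:80602609-80602908), Ubash3b (chr9:41105434-41105733) and Agap1 (chr1:89602866-89603165) rose at strong regions and hold a motif match. Those of Nfkb1 (chr3:135665851-135666150) and Plcg2 (chr8:117548567-117548866) rose at least 3-fold and hold none in the bases shown. Those of Zbtb16 (chr9:48745033-48745332 and chr9:48766923-48767222) and Drosha (chr15:12895547-12895846) fell. Capitals mark matches, on either strand, to the NF-κB motif, to the AP-1 motif TGANTCA or to the Runt motif AACCACA, none of which contains another. Of all tested regions of 500 bp, 8.53% hold the NF-κB motif, 15.2% the AP-1 motif and 17.0% the Runt motif. A match describes the letters and does not show binding.
Cd247 intron: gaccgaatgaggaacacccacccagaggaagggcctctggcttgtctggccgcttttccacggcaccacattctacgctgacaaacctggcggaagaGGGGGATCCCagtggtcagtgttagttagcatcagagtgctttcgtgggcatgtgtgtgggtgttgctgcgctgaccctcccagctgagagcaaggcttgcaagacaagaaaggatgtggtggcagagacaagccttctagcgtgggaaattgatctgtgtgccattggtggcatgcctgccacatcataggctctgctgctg
Grap2 intron: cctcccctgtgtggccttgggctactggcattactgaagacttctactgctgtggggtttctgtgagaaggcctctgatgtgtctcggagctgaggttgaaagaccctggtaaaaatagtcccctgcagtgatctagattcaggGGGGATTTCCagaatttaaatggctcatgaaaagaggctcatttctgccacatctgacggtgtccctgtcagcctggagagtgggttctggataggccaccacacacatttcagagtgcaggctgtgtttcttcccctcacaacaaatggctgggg
Ubash3b intron: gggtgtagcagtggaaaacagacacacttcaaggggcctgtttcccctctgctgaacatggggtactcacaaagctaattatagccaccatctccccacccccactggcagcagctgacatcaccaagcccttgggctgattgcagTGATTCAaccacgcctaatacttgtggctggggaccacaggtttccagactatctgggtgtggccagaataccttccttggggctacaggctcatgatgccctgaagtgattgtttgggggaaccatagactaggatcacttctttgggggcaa
Agap1 intron: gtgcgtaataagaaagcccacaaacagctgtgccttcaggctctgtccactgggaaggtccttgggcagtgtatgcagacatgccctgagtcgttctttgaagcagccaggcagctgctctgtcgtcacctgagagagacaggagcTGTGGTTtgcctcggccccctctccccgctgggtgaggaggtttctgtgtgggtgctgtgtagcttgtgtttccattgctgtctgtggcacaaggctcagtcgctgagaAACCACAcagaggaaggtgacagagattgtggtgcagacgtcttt
Nfkb1 intron: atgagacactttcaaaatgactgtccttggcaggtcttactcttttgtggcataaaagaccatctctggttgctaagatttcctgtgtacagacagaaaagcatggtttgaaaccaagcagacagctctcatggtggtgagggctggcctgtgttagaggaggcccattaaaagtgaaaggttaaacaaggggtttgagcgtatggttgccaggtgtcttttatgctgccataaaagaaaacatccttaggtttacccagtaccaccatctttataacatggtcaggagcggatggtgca
Plcg2 intron: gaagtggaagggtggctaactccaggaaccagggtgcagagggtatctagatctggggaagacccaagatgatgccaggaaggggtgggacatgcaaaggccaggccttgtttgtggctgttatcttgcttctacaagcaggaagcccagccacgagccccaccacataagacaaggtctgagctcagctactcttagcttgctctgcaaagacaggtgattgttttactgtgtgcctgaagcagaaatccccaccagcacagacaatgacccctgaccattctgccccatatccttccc
Zbtb16 intron, fallen at least 3-fold: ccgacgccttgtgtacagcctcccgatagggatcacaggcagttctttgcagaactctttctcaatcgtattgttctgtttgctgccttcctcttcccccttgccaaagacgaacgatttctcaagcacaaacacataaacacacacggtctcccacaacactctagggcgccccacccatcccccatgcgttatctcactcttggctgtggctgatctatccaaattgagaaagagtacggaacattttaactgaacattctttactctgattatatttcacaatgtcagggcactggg
Zbtb16 intron, strong and fallen: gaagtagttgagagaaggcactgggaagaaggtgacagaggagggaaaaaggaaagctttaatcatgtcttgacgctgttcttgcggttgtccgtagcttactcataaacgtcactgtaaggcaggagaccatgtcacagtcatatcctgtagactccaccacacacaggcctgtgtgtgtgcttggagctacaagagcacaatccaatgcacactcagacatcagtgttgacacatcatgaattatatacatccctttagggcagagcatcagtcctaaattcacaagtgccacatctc
Drosha intron: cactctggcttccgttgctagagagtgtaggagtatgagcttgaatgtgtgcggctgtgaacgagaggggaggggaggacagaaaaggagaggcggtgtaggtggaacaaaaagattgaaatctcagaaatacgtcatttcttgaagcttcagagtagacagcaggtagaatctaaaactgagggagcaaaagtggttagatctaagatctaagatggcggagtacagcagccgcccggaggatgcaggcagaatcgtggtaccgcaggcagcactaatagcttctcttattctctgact

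At Hivep3 itself (ENSMUSG00000028634.17, chr4:119733784-120138045), accessibility does not report on the knockout. The promoter region (chr4:119733529-119734028) had linear values of 92.3 and 90.4 in C57BL/6 and 88.2 and 91.2 in Hivep3-/- iNKT1 libraries, and the genotypes did not differ in limma (log2 change -0.03, SE 0.08, adjusted p = 0.935). Of the 20 tested regions in the gene or within 10 kb, 2 were higher at an adjusted p under 0.1 and 0 were lower, where 5.49% of all tested regions were higher and 3.93% lower. The larger of these rises lay in an intron (chr4:119921048-119921547), with 6.71 and 8.16 in C57BL/6 and 17.3 and 19.5 in Hivep3-/- libraries, a log2 change of 1.31 (SE 0.24, adjusted p = 0.00636). Within 5 Mb of the gene, 296 regions were tested, of which 1 rose and 0 fell at least 3-fold. The data thus hold no gap at Hivep3 by which the genotype labels could be checked.

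The iNKT1 label was checked at markers of the subsets. The most accessible region at Tbx21 stood at 96.4 and 105 in C57BL/6 and 134 and 143 in Hivep3-/- iNKT1 libraries (log2 change 0.45, SE 0.36, adjusted p = 0.614 in limma). In C57BL/6 iNKT2 libraries it stood at 12.2 and 16.7, and in iNKT17 libraries at 1.41 and 0.655. The promoter region of Nkg7, a granule protein of cytotoxic cells, stood at 160, 146, 157 and 149 in the 4 iNKT1 libraries, against 14.8 and 12.2 in C57BL/6 iNKT2 libraries. At the promoter region of Il2rb, which encodes CD122, C57BL/6 libraries stood at 147 and 174 in iNKT1, 163 and 185 in iNKT2 and 268 and 280 in iNKT17 cells, so that it did not set iNKT1 cells apart. An intergenic region near Il17a rose from 7.01 and 6.94 in C57BL/6 to 13.5 and 14.9 in Hivep3-/- iNKT1 libraries (log2 change 1.02, adjusted p = 0.000139), where C57BL/6 libraries stood at 68.1 and 63.1 in iNKT2 and 138 and 135 in iNKT17 cells. Over the 16 iNKT1 marker genes, 115 regions were tested, of which 2 (1.74%) were higher and 1 (0.870%) was lower at an adjusted p under 0.1, against 5.49% and 3.93% of all tested regions. Of the 10 tested regions at double-positive thymocyte genes 1 was higher and 0 lower, and of the 20 at myeloid genes 0 were higher or lower. Of the 27 at B cell genes 3 (11.1%) were higher, all of them at Pax5, and 1 (3.70%) was lower, beside the same shares of all regions. No tested region lay at Rag1, Rag2, Cd8a, Cd8b1, Ms4a1, Lyz2, Csf1r or Il17f.

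More regions were higher than lower in Hivep3-/- iNKT1 cells. At 3-fold or more and an adjusted p under 0.1, 482 regions rose (0.890% of those tested) and 143 fell (0.264%), together 625 (1.15%). These were mostly weak regions. The median linear mean of the risen regions went from 2.56 to 10.5, and that of the fallen regions from 8.54 to 2.24. The higher genotype reached 50 at 6 risen and 1 fallen region. At any fold, 2970 regions were higher (5.49%) and 2128 lower (3.93%), and the median log2 change over all tested regions was -0.02. The deposited values have nearly equal medians in all 12 libraries, from 3.896 to 3.903 on the log2 scale. The median change therefore cannot show whether accessibility shifted as a whole. Strong regions are those that reached a linear mean of 50 in 1 or both genotypes. Among 12599 strong regions, 153 rose (1.21%) and 87 fell (0.691%) by 1.5 to under 3-fold, together 240 (1.90%). Their median folds were 1.68 and 1.71. The number of distinct values up to the median of a library, taken as a stand-in for depth, was 139 and 170 in C57BL/6 and 227 and 491 in Hivep3-/- iNKT1 libraries. The genotype with the finer values was thus the one in which more regions rose, and the part of depth in this was not tested. At the lowest value of a C57BL/6 library stood 7 of the risen regions, and at that of a Hivep3-/- library 1 of the fallen.

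**Figure D1:**
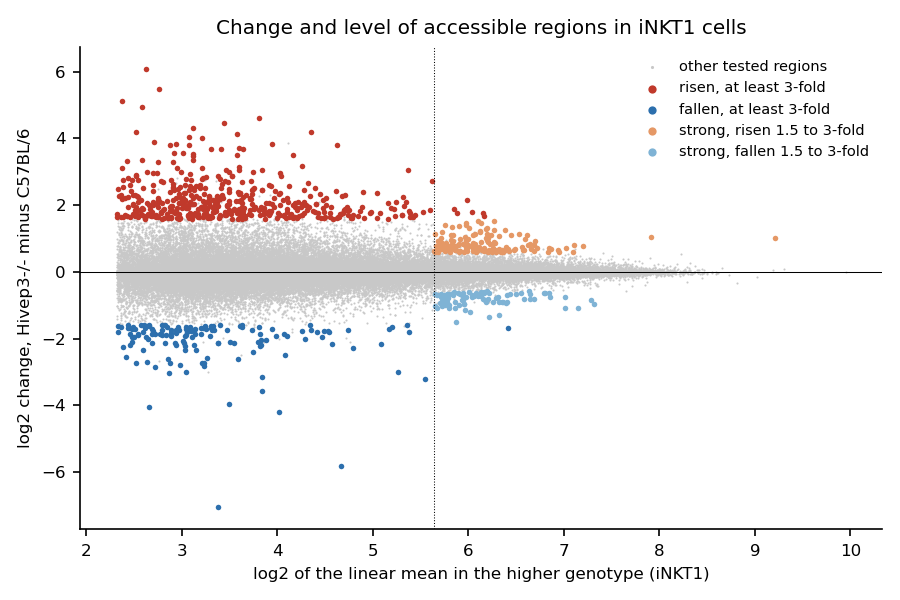
Each point is 1 of the 54145 tested regions, with the log2 of its linear mean in the higher genotype on the horizontal axis and its log2 change in iNKT1 cells on the vertical axis. The dotted line marks the linear mean of 50 from which a region counts as strong, and most changes of at least 3-fold lie to its left.

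The counts depend on single libraries and on scaling. Without C57BL/6 replicate 1, 411 regions changed at least 3-fold and 134 strong regions changed 1.5 to 3-fold. Without Hivep3-/- replicate 2, the deepest by the number of distinct values, these counts were 413 and 150. The share of changed regions that rose was 77.1%, but 55.1% of 2877 after a renewed quantile normalization. Adding 5 to the linear values, which shrinks changes of weak regions, left 26 regions at 3-fold and 232 strong changed regions. At the thresholds themselves, the fold nearest above 3 was 3.0003 and the nearest below was 2.995, and the adjusted p of regions past 3-fold passed from 0.0994 to 0.101. The accessible level was split at 5.0001 and 4.999, and the strong level at 50.0003 and 49.998.

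The changed regions lay away from promoters. Regions no more than 1000 bp from a start of transcription count as promoters. Promoters made up 35.1% of tested regions but 8.51% of the 482 risen regions and 5 of the 143 fallen regions at 3-fold. Among strong regions 62.3% were promoters, against 14.4% of the strong risen and 8.05% of the strong fallen regions. Introns held 44.0% of the risen, 47.6% of the fallen and 32.3% of all tested regions. Intergenic sequence held 40.2%, 43.4% and 28.9%. The median distance to a start was 14.7 kb for risen, 24.6 kb for fallen and 4.15 kb for all tested regions. Median G and C content was 47.9% and 46.8% in risen and fallen regions, and 48.2% in all tested regions away from promoters.

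All autosomes and the X chromosome held changed regions. Their share was highest on chromosome 9 (1.90% of 3208 regions, 41 risen and 20 fallen) and lowest on the X chromosome (0.193% of 1037 regions, 2 risen and 0 fallen). Changed regions were spread over 436 windows of 1 Mb, of which 313 held a single one and 26 held both risen and fallen regions. The 7 windows with 5 or more held 38. In the fullest, chr9:48000001-49000000, 6 regions fell and 1 rose, and the 6 belonged to Zbtb16. The next, chr9:92000001-93000000, had 6 risen regions among 9 tested, where 0.890% of all tested regions rose. The 6 lay at the phospholipid scramblase genes Plscr2 and Plscr4, at 1700057G04Rik and at Plod2, a collagen lysyl hydroxylase. One of these lay at the start of Plod2 (chr9:92541986-92542485), with 1.59 and 1.15 in C57BL/6 and 8.73 and 9.76 in Hivep3-/- libraries, low values in both genotypes. Of the 5 windows with 5 changed regions, 1 held 5 risen regions of Camk2b and 1 held 5 fallen regions of Drosha. Another held 5 fallen regions, 3 of them nearest to Lmo4. In the window of Npas2, 4 fell, 3 of these in Npas2, and 1 rose. At chr2:75000001-76000000, 4 fell and 1 rose.

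The 8 regions with the highest level among those that rose at least 3-fold are given here. At Map3k14, which encodes the NF-κB-inducing kinase, a region overlapping a UTR (chr11:103220166-103220665) had 19.0 and 22.9 in C57BL/6 and 68.8 and 73.9 in Hivep3-/- libraries. This was a 3.41-fold rise (log2 change 1.77, SE 0.16, adjusted p = 5.8e-05 in limma). In an intron of Nfkb1, which encodes the p50 subunit (chr3:135665751-135666250), values were 18.8 and 18.8 and then 62.7 and 68.6. The genotypes stood well apart there, with a log2 change of 1.80 and an SE of 0.11 (adjusted p = 2.6e-06). An intron of Plcg2, phospholipase C gamma 2 (chr8:117548467-117548966), went from 16.3 and 18.7 to 54.3 and 63.9 (log2 change 1.76, SE 0.12). Of the 5 tested regions of that gene, 3 rose at least 3-fold, against 0.890% of all tested regions. The largest change of the 8 was in an intron of Myo1d, an unconventional myosin (chr11:80490710-80491209), from 6.37 and 8.53 to 41.9 and 56.3, or 6.59-fold (adjusted p = 1.5e-05). An intron of Megf10, an engulfment receptor (chr18:57249505-57250004), rose from 13.5 and 14.8 to 63.9 and 63.0, while its log2 change was -1.77 in iNKT2 cells. The other 3 were near Vcpkmt (chr12:69510694-69511193, 3.20-fold, with a log2 change of 1.48 without C57BL/6 replicate 1, under 3-fold), in Gm20431 (chr2:167649177-167649676, 3.66-fold) and beside the start of the repressor Klf12 (chr14:100284764-100285263, 3.60-fold). In all 8, both Hivep3-/- libraries exceeded both C57BL/6 libraries, which the rule for calling a region nearly ensures. The genotypes did not overlap, in either direction, at 29063 of all 54145 tested regions.

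Of the regions that fell at least 3-fold, the most accessible lay between Pgm2 and Rell1 on chromosome 5. One (chr5:64040664-64041163) had 80.3 and 90.8 in C57BL/6 and 25.4 and 27.9 in Hivep3-/- libraries, a fold of 3.21 (log2 change -1.68, SE 0.14, adjusted p = 3.0e-05). Another (chr5:64029623-64030122) went from 37.9 and 39.2 to 5.11 and 4.44. These 2 and 2 more fell within 12 kb, and the log2 change of the first was -1.77 in iNKT2 and -1.50 in iNKT17 cells. Of the 2 more, chr5:64030654-64031153 went from 30.0 and 20.9 in C57BL/6 to 0.501 and 0.385 in Hivep3-/- iNKT1 libraries. Its log2 changes were -5.83, -6.25 and -5.03 in iNKT1, iNKT2 and iNKT17 cells, so that this loss was not particular to iNKT1 cells. In an exon of BC004004 (chr17:29283130-29283629), values were 42.2 and 51.6 in C57BL/6 and 4.71 and 5.45 in Hivep3-/- libraries, and the log2 changes in iNKT1, iNKT2 and iNKT17 cells were -3.20, -5.70 and -3.75. In iNKT17 cells, with means of 1.95 and 0.143, this region was under the accessible level and not tested. An intron of the circadian regulator Npas2 (chr1:39234799-39235298) fell from 36.0 and 37.7 to 11.5 and 12.1. Of the 14 tested regions of the gene, 10 were lower at an adjusted p under 0.1 and 0 higher, against 3.93% and 5.49% of all tested regions. In Pgam1, an enzyme of glycolysis (chr19:41916808-41917307), an intron fell from 38.2 and 44.0 to 13.1 and 13.8. The fall was under 3-fold without C57BL/6 replicate 2 (log2 change -1.50) or Hivep3-/- replicate 1 (-1.57). In the guanine exchange factor Trio (chr15:27825279-27825778), an intron fell from 40.1 and 32.1 to 11.3 and 10.7, and by under 3-fold without C57BL/6 replicate 1 (log2 change -1.54). The remaining 2 were in introns of Asb2 (chr12:103333368-103333867, adjusted p = 0.0220), part of a ubiquitin ligase, and Bcl2l13 (chr6:120854357-120854856, adjusted p = 0.00931). At Asb2 the adjusted p was 0.109 to 0.140 without C57BL/6 replicate 2 or either Hivep3-/- library.

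**Figure D2:**
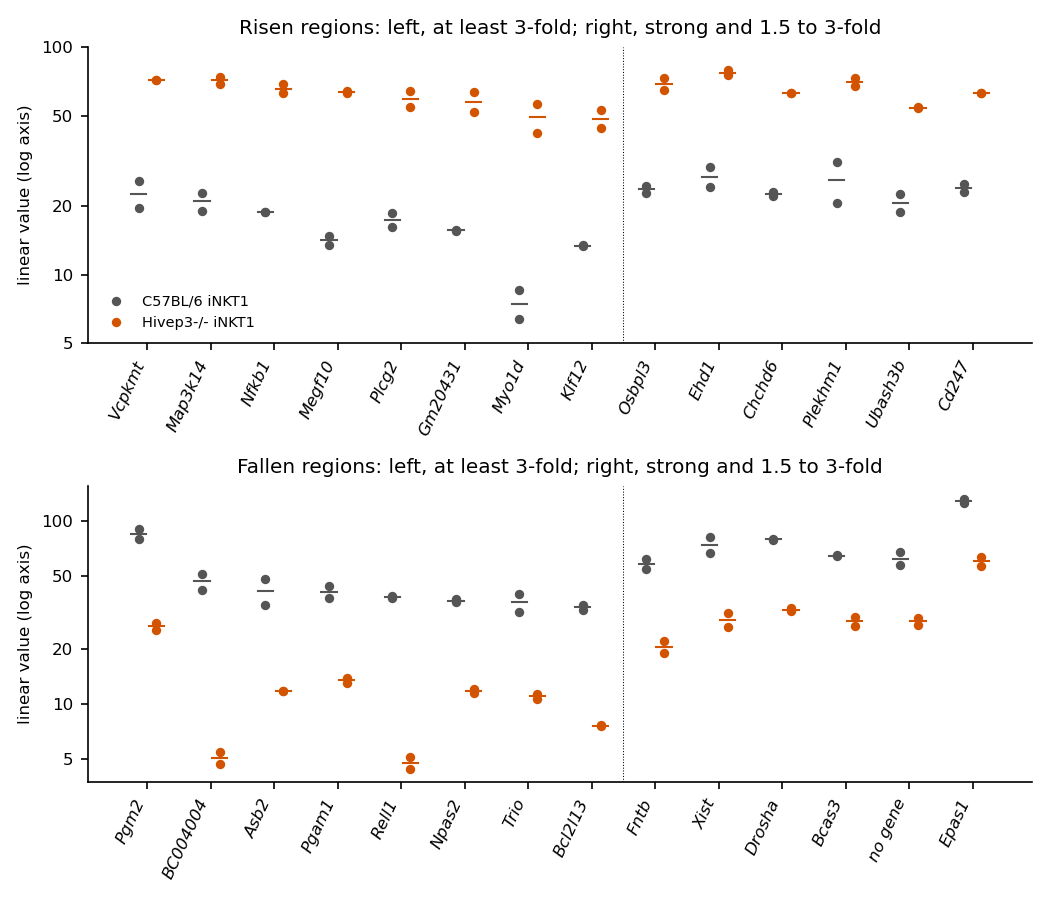
Linear values, on a log axis, of the 14 risen (top) and 14 fallen (bottom) regions chosen by level or size, with each library as a point and the mean of a genotype as a bar. In each region shown, the points of the 2 genotypes do not overlap, which the choice of called regions nearly ensures. The same holds for 29063 of all 54145 tested regions.

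Among the 153 strong regions that rose 1.5 to 3-fold, the 6 with the largest change are given here. The first 3 were in introns of Osbpl3, an oxysterol-binding protein (chr6:50393962-50394461, 2.90-fold), and of Chchd6 (chr6:89421482-89421981, 2.78-fold), and in a UTR of the endocytic ATPase Ehd1 (chr19:6298913-6299412, 2.88-fold). At Chchd6, values of 22.1 and 23.1 in C57BL/6 stood against 63.1 and 62.5 in Hivep3-/- libraries (SE of the log2 change 0.12, adjusted p = 3.0e-05). The rises of Osbpl3 and Ehd1 had adjusted p of 0.0123 and 0.0206. For Osbpl3 it was 0.106 without C57BL/6 replicate 1 and 0.120 without Hivep3-/- replicate 2. For Ehd1 it was 0.181 and 0.157 without these, and 0.109 without Hivep3-/- replicate 1. Plekhm1, a lysosomal adapter (chr11:103372511-103373010), rose in an intron from 20.6 and 31.3 to 67.6 and 72.8. In an intron of Ubash3b, a phosphatase that restrains T cell receptor signalling (chr9:41105270-41105769), values went from 18.8 and 22.6 to 54.1 and 54.2 (log2 change 1.39, SE 0.16, adjusted p = 0.000221). Of the 42 regions of the gene, 9 were higher, against 5.49% of all tested regions. In an intron of Cd247 (chr1:165816317-165816816), values went from 25.0 and 23.1 to 62.9 and 62.8 (log2 change 1.39, SE 0.12, adjusted p = 3.0e-05). The region next to the start of Pgk1, an enzyme of glycolysis on the X chromosome (chrX:106186746-106187245), was noticed after its values were seen. It rose from 113 and 120 to 244 and 237, and the log2 changes of iNKT1, iNKT2 and iNKT17 cells were 1.05, 1.13 and 1.24. The rise was thus not particular to iNKT1 cells. The sexes in a pool are not given in the sources used here, and their part in this rise was not tested.

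Among the 87 strong regions that fell 1.5 to 3-fold, the 6 with the largest change are given here. In an intron of Drosha, the nuclease that starts microRNA maturation (chr15:12895447-12895946), values were 79.9 and 79.5 in C57BL/6 and 33.5 and 32.1 in Hivep3-/- libraries (log2 change -1.28, SE 0.07, adjusted p = 2.6e-06). The largest fall was in an intron of Fntb, a subunit of farnesyltransferase (chr12:76903763-76904262), from 55.0 and 62.5 to 22.1 and 19.0. A region within Xist and Tsix, the non-coding genes of X inactivation (chrX:103481553-103482052), fell from 67.2 and 82.1 to 26.5 and 31.5, and its log2 changes were -1.36, -1.23 and -1.73 in iNKT1, iNKT2 and iNKT17 cells. Since mice of both sexes were used and the sexes in a pool are not given in the sources used here, the make-up of the pools and the genotype cannot be told apart at this region. Near Epas1, which encodes HIF-2α (chr17:86709773-86710272), values fell from 132 and 126 to 64.2 and 57.1. The others lay on chromosome 14 with no gene start within 100 kb (chr14:15083768-15084267, 2.19-fold) and in an intron of Bcas3 (chr11:85453885-85454384, adjusted p = 0.0763). At Bcas3 the adjusted p was 0.216 to 0.374 whichever iNKT1 library was left out. Chosen after the values were seen, Tex2 had 4 strong fallen regions and 14 of 25 regions lower, and Itgb3, the integrin β3 gene, had 3 and 8 of 13. Over all tested regions 3.93% were lower, and 0.691% of all strong regions fell 1.5 to 3-fold. At the strongest Tex2 region (chr11:106564237-106564736), 145 and 139 in C57BL/6 stood against 69.7 and 65.5 in Hivep3-/- libraries.

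Zbtb16, the gene of PLZF, had the most fallen regions of any gene. Of its 68 tested regions, 45 were lower at an adjusted p under 0.1 and 0 were higher, against 3.93% and 5.49% of all tested regions. The median log2 change of the 68 was -0.65. Summed over the locus, linear values were 2050 and 1904 in C57BL/6 and 1426 and 1359 in Hivep3-/- iNKT1 libraries, so that the genotypes did not overlap. Taken singly, 29063 of all 54145 tested regions showed no overlap either. In its introns 6 regions fell at least 3-fold, among them chr9:48744933-48745432, with 14.2 and 14.1 in C57BL/6 and 2.59 and 3.51 in Hivep3-/- libraries (log2 change -2.23, SE 0.29, adjusted p = 0.000560). At 4 strong regions the fall was 1.5 to 3-fold, the largest at chr9:48766823-48767322, from 75.4 and 72.4 to 44.3 and 40.0. In iNKT2 cells, 7 of 68 regions were lower with a median of -0.16, where 8.16% of all regions tested there were lower. In iNKT17 cells 3 of 66 were lower and 1 was higher with a median of -0.19, where 1.99% of all were lower. The change differed from that in iNKT2 cells at 22 regions and from that in iNKT17 cells at 15 (interaction, adjusted p under 0.1 at any fold), against 9.40% and 3.37% of all tested regions. Zbtb16 is given here for its fallen regions in iNKT1 cells, which partly sets these differences. Without C57BL/6 replicate 1, 27 regions were lower, and without Hivep3-/- replicate 2, 28.

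The iNKT2 marker list, to which Zbtb16 belongs, was lower at 38.7% of its regions, against 3.93% of all tested regions. All 14 genes of the list had tested regions, and of these 186 regions 72 were lower and 4 were higher, with a median log2 change of -0.41. Zbtb16 was the most accessible gene of the list. Summed over the list, linear values were 6330 and 6130 in C57BL/6 and 5347 and 5141 in Hivep3-/- iNKT1 libraries. Without Zbtb16, 27 of 118 regions were lower and 4 were higher, with a median of -0.21 and sums of 4280, 4226, 3921 and 3781. Among these 118, 1 region rose and 2 fell at least 3-fold, against 0.890% and 0.264% of all tested regions. At strong regions, 1 rose and 1 fell by 1.5 to 3-fold, where 1.21% and 0.691% of all strong regions did. A changed region lay at 6 of the 14 genes of the list, and the matching share over all genes is not given here. At Il4, the gene of interleukin 4, 6 of 13 regions were lower. A strong intergenic region, nearer to the start of Il13 (chr11:53627253-53627752), went from 103 and 88.6 to 54.5 and 55.0 (log2 change -0.80, adjusted p = 0.00192). A region at the start of Cd4 (chr6:124887967-124888466) fell from 10.4 and 9.32 to 2.85 and 2.38. Gata3 had 3 of 14 regions lower and 0 higher. Fewer iNKT2 cells in the sorted fraction, a different mix of iNKT1 states and less accessibility in each iNKT1 cell cannot be told apart in bulk libraries. The paper divides iNKT1 cells into several clusters by single-cell RNA sequencing, over which the 2 genotypes were spread differently. Cells of the iNKT2 subset carry ICOS, and the gate for iNKT1 cells took cells without it in both sorts. The summed iNKT1 list stood at 4487 and 4364 in C57BL/6 and 4525 and 4452 in Hivep3-/- iNKT1 libraries. The parts of iNKT2 cells and of the mix of iNKT1 states in the result were not tested. For the iNKT17 list the sums were 609, 604, 591 and 581 in the same order.

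The locus of Cd247, which encodes the ζ chain of the CD3 complex, rose over most of its length. Of 24 tested regions, 18 were higher and 0 lower at an adjusted p under 0.1, against 5.49% and 3.93% of all tested regions. The median log2 change of the 24 was 1.14, and 4 regions rose at least 3-fold and 4 strong ones 1.5 to 3-fold. Locus sums were 461 and 483 in C57BL/6 and 724 and 738 in Hivep3-/- libraries. The median log2 change was 0.89 in iNKT2 cells, with 19 regions higher, and 0.92 in iNKT17 cells, with 18, where 8.26% and 2.66% of all regions were higher. The change thus ran through all 3 subsets. All 18 higher regions of the list of T cell receptor and CD3 chains, which had 41 tested regions, belonged to Cd247, and Trac, Trbc1 and Trbc2 had no tested region. Introns and exons of Camk2b, a calmodulin-dependent kinase, held 5 risen regions, and the one with the largest change, in an exon (chr11:6011912-6012411), went from 6.71 and 6.27 to 31.3 and 34.9. There too the change was large in each subset, with log2 values of 2.35, 3.70 and 4.30 for iNKT1, iNKT2 and iNKT17 cells. After these 2 genes, 9 genes had 3 risen regions each: Itga4, Agap1, Ppic, Plcg2, Tmem108, Lsmem1, Ifrd1, Agpat4 and Abr. Lsmem1 and Ifrd1 lie side by side, and the same 3 regions count for both. At the start of Itga4, the integrin α4 gene (chr2:79255048-79255547), values went from 13.2 and 13.7 to 41.1 and 43.0.

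**Figure D3:**
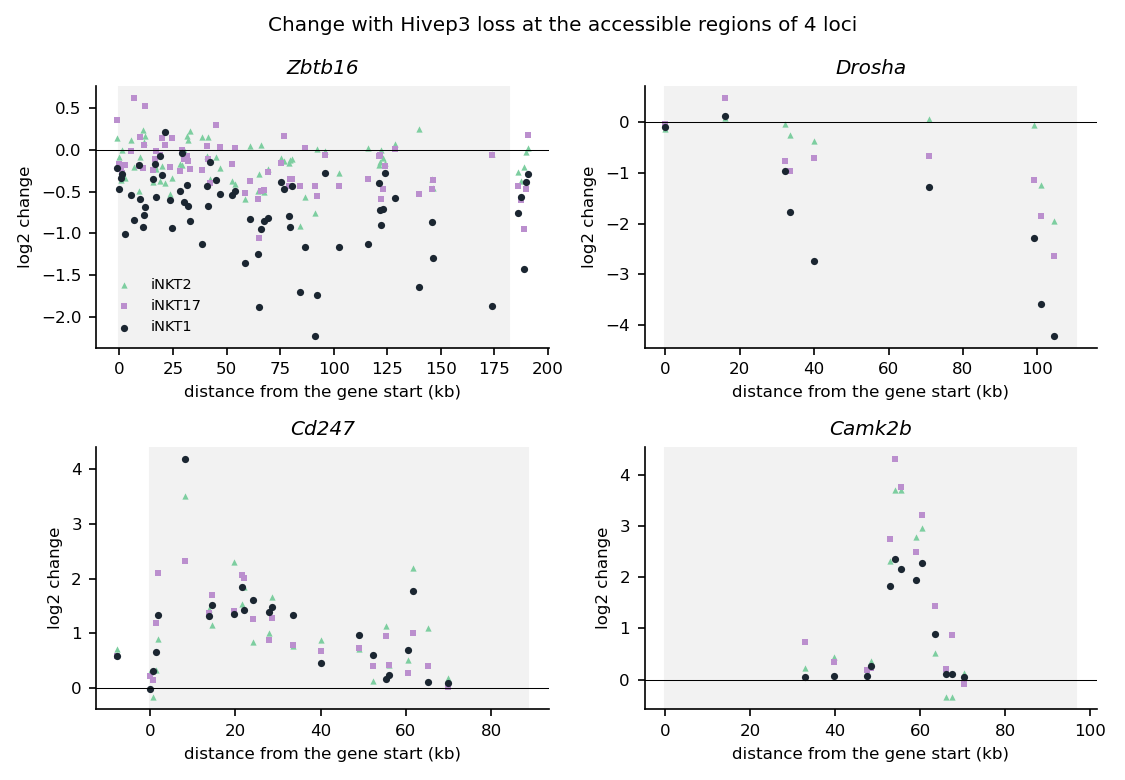
Log2 change between genotypes at each region tested in iNKT1 cells, against its distance from the gene start in kb, with the gene body shaded. Regions of Zbtb16 and Drosha lay lowest in iNKT1 cells (dark circles), whereas Cd247 and Camk2b rose in iNKT1, iNKT2 (triangles) and iNKT17 (squares) cells.

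Drosha had 5 regions that fell at least 3-fold. At an adjusted p under 0.1, 7 of its 9 regions were lower, against 3.93% of all tested regions. The median log2 change of the 9 was -1.77. In an intron (chr15:12928963-12929462), values of 18.3 and 14.2 in C57BL/6 stood against 1.15 and 0.655 in Hivep3-/- libraries. The region at its start did not differ, with a log2 change of -0.10 (adjusted p = 0.685). All 7 lower regions of the microRNA processing list, which had 65 tested regions and 12 genes, were those of Drosha. In iNKT2 cells 1 of its 9 regions was lower, and in iNKT17 cells 2 of 6, against 8.16% and 1.99% of all regions tested there. A different change from that in iNKT2 cells was found at 5 regions and from that in iNKT17 cells at 2, against 9.40% and 3.37% of all tested regions, in a gene given here for its falls in iNKT1 cells. After Zbtb16 and Drosha, Npas2 and Lrig1 had 3 fallen regions each, and 7 genes had 2: Mbp, Sec63, Dnajc3, BC004004, Uggt2, Ccr9 and Armc8. Ccr9 encodes a homing receptor of thymocytes, and both its regions lay in exons.

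Lists of NF-κB and AP-1 genes are set beside all tested regions, of which 5.49% were higher and 3.93% lower, and no test of a list was made. Of all strong regions, 1.21% rose by 1.5 to 3-fold. Of 209 regions at the 29 genes of NF-κB subunits, inhibitors and feedback regulators, 17 (8.13%) were higher, 5 of them at Nfkb1, and 1 (0.478%) was lower. At least 3-fold, 3 of the 209 rose, against 0.890% of all tested regions. The list's median log2 change was 0.07, against -0.02 over all tested regions. Besides Nfkb1 and Map3k14, a region of Tnip1, an inhibitor of NF-κB (chr11:54936335-54936834), rose from 8.73 and 9.24 to 25.4 and 29.4 (log2 change 1.61, adjusted p = 0.000498). Traf1, an adapter of tumour necrosis factor receptors, had 2 strong regions that rose, one from 30.1 and 40.0 to 66.6 and 84.1 (chr2:34957917-34958416). Of 162 regions at AP-1 and Bach genes, 18 (11.1%) were higher and 2 (1.23%) were lower. Bach2, a repressor that competes with AP-1, accounted for 9 of the 18. Among Egr, NFAT and Nr4a genes, 13 of 135 regions were higher (9.63%) and 5 lower (3.70%), and 4 of the 5 regions of Nr4a2 were higher. The more accessible of its 2 strong risen regions (chr2:57114726-57115225) went from 63.1 and 63.9 to 98.1 and 104.

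The remaining Hivep genes rose at 1 strong region each, where 1.21% of all strong regions rose by 1.5 to 3-fold. In an intron of Hivep1 (chr13:42095758-42096257), values were 41.2 and 41.4 in C57BL/6 and 69.0 and 69.0 in Hivep3-/- libraries (log2 change 0.74, SE 0.13, adjusted p = 0.00520). Before the start of Hivep2 (chr10:13964592-13965091) they were 80.3 and 101 and 125 and 149 (log2 change 0.60, adjusted p = 0.0153). Across the 3 genes, 8 of 62 regions (12.9%) were higher and 0 lower, against 5.49% and 3.93% of all tested regions.

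Other signalling and receptor lists are read against the same shares of 5.49% and 3.93%. These shares do not apply to strong regions, of which 1.21% rose and 0.691% fell by 1.5 to 3-fold. The numbers of strong regions in these lists are not given here. Among 521 regions of T cell receptor-proximal signalling, 33 (6.33%) were higher and 16 (3.07%) lower, and 3 strong regions rose and 1 fell. Grap2, the adapter Gads, had 2 strong risen regions there, one from 31.7 and 40.2 to 66.8 and 78.3 (chr15:80602432-80602931). Cytokine receptor and STAT genes had 25 of 263 regions higher (9.51%) and 13 lower (4.94%), with strong rises at Il2ra, Tgfbr2, Il4ra and Il21r. Chemokine receptor and homing genes had 23 of 268 higher (8.58%) and 7 lower (2.61%). Of 59 regions at regulatory T cell genes, 11 (18.6%) were higher and 3 (5.08%) lower, with called regions at Il2ra and Ikzf2, and their summed values were 1845, 1799, 1926 and 1891 in the 2 C57BL/6 and the 2 Hivep3-/- libraries. The most accessible gene of that list was Tnfrsf9, and each of its 7 genes had tested regions. Crtam, an adhesion receptor of activated T cells, rose in an intron (chr9:40994059-40994558) from 7.41 and 10.4 to 35.4 and 40.3. Natural killer receptors of chromosome 6 had 1 of 78 regions higher and 1 lower, and cytotoxic effector and chemokine genes 2 of 86 higher and 0 lower, 1 of them a strong region at the perforin gene Prf1. Interferon response genes had 0 of 62 higher and 1 lower.

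**Figure D4:**
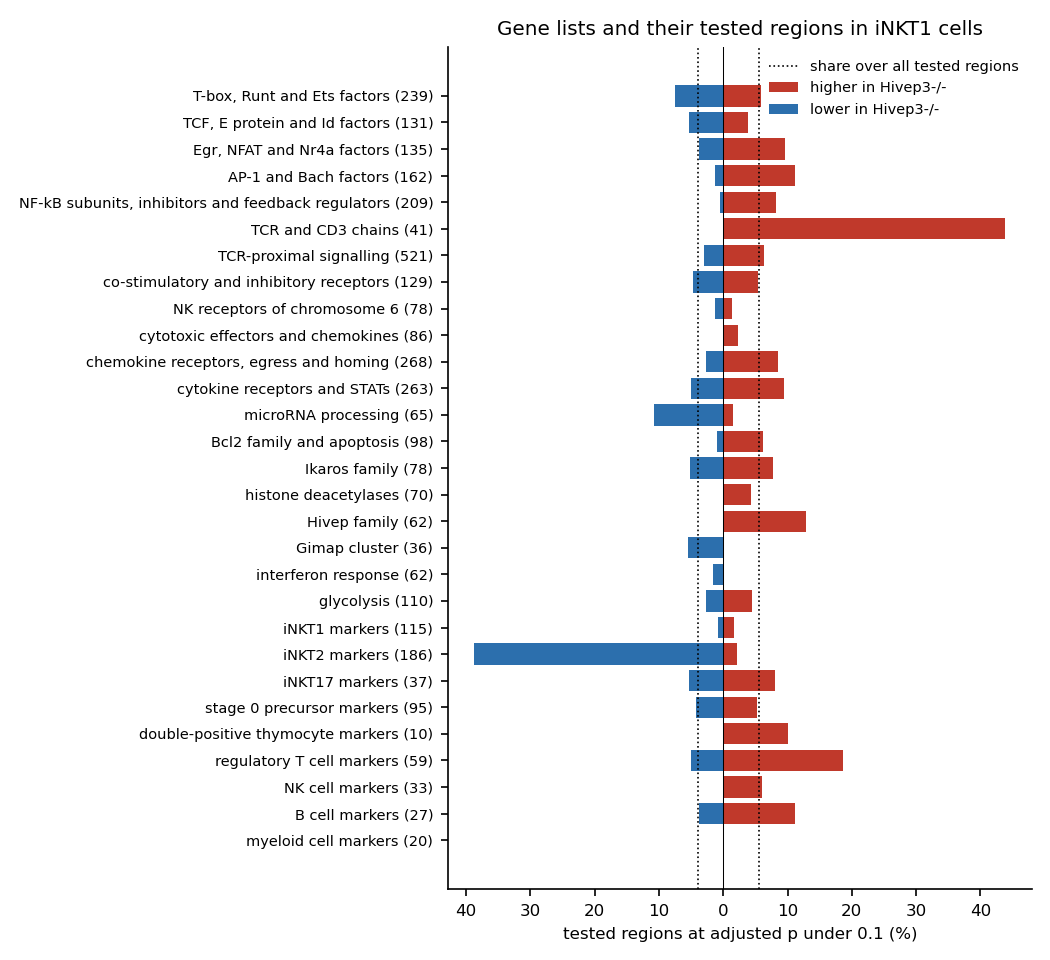
For each of the 29 gene lists, with its number of tested regions in brackets, the bars give the percentage of regions higher (right) or lower (left) in Hivep3-/- iNKT1 cells at an adjusted p under 0.1. Dotted lines mark the same percentages over all tested regions, 5.49 and 3.93, and the iNKT2 markers and the T cell receptor and CD3 chains lie farthest from them.

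Motif matches were counted in the risen and fallen regions. Away from promoters, the NF-κB motif was in 23.7% of the 131 strong risen regions, in 3.75% of the 80 strong fallen regions and in 11.6% of all 4755 strong regions. The AP-1 motif was in 39.7%, 18.8% and 22.4%, and the Runt motif in 32.1%, 16 of 80 and 25.6%. Read the other way, 5.61% of strong regions with an NF-κB match rose and 0.542% fell, and where neither an NF-κB nor an AP-1 match was present, 1.78% rose and 1.93% fell. Among the 441 regions that rose at least 3-fold, 7.48% held the NF-κB motif, against 7.80% of all tested regions away from promoters. The AP-1 motif was in 32.4% of these risen regions against 18.7%. The Gata motif AGATAA was in 36.2% of the 138 fallen regions, in 23.6% of the risen and in 23.8% of all tested regions away from promoters. Matches to the CTCF motif were in 0.227% of the risen and 0 of the fallen regions, against 5.63%. Among strong regions away from promoters, they were in 0.763% of the risen and 2.5% of the fallen, against 1.47%. No test was made, and the strong share of the NF-κB motif was 14.7% with strong regions taken from 20 and 14.3% (2 of 14) with those from 100, levels for which the share over all regions was not computed. Without Hivep3-/- replicate 2 it was 17.1%.

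**Figure D5:**
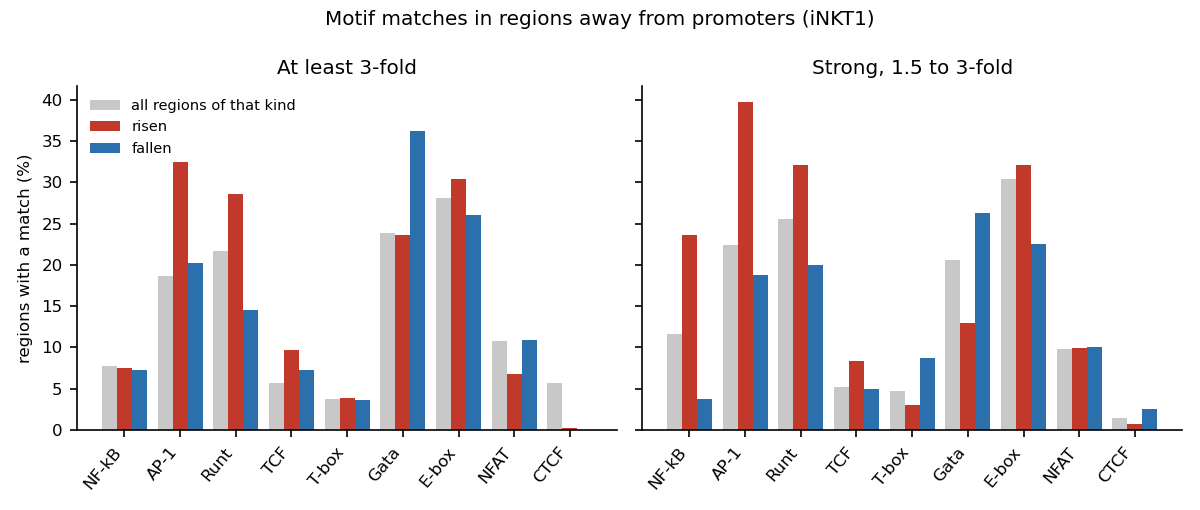
Percentage of regions away from promoters that hold a match to each motif, for regions changed at least 3-fold (left) and strong regions changed 1.5 to 3-fold (right). Grey bars give all tested regions of that kind, and risen strong regions exceed them for NF-κB (23.7% against 11.6%) and AP-1 (39.7% against 22.4%).

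Whether the changes were particular to iNKT1 cells was tested with the iNKT2 and iNKT17 libraries, which may come from the same pools of thymi. Of the 482 risen regions, 310 were tested in iNKT2 cells, where 62 were higher and 57 (18.4%) lower, against 8.26% and 8.16% of all regions tested there. In iNKT17 cells 255 were tested, of which 35 (13.7%) were higher and 5 (1.96%) lower, against 2.66% and 1.99%. Of 127 fallen regions tested in iNKT2 cells, 58 (45.7%) were lower and 1 higher, and of 81 tested in iNKT17 cells, 31 (38.3%) were lower and 0 higher. After renewed quantile normalization, the shares that changed the same way were 13.1% of risen and 13.5% of fallen regions in iNKT2 cells. In iNKT17 cells they were 3.87% and 5.19%. The shares over all regions after that normalization are not given here, and risen and fallen shares were not tested against each other. Of the strong risen regions, 47 of 147 tested (32.0%) were higher and 18 (12.2%) lower in iNKT2 cells, and 40 of 152 (26.3%) were higher and 2 (1.32%) lower in iNKT17 cells. Of the strong fallen regions, 33 of 87 (37.9%) were lower and 4 (4.60%) higher in iNKT2 cells, and 22 of 85 (25.9%) were lower and 0 higher in iNKT17 cells. A difference of 3-fold or more from the change in iNKT2 cells was found at 1216 regions (2.25%), and from that in iNKT17 cells at 640 (1.18%). These included 299 and 254 of the 482 risen regions and 40 and 37 of the 143 fallen regions, which had been chosen for their change in iNKT1 cells. Of the risen regions, 172 were under the accessible level in iNKT2 and 227 in iNKT17 cells, and of the fallen regions 16 and 62. Such regions entered this comparison only through iNKT1 cells. Leaving out Hivep3-/- iNKT1 replicate 2 gave 806 regions against iNKT2 and 278 against iNKT17 cells. Against iNKT17 cells there were 301 without C57BL/6 replicate 1 and 379 without Hivep3-/- replicate 1. In all 3 subsets, 26 of the risen and 17 of the fallen regions changed in the same direction at an adjusted p under 0.1. These had been chosen for their change in iNKT1 cells, and the matching share over all tested regions is not given here. The risen ones included 5 regions of Camk2b and 4 of Cd247.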

How the data were processed

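As deposited, the values are log2 insertions per kilobase that the authors trimmed with Trimmomatic 0.39, mapped to mm10, counted in merged regions of 500 bp and normalized with voom. Library depth is not given by such values. The 12 libraries were fitted together in limma 3.58.1 (R 4.3.3), with 6 group means and a variance trend (6 residual and 7.17 prior degrees of freedom), and p-values were adjusted by the Benjamini-Hochberg method over all regions tested in a comparison. With 2 libraries against 2, an exact permutation test cannot go below 0.333, so none was used. Genes are protein-coding GENCODE vM21 models, and a locus is the body with 10 kb on either side. Members and lists were chosen with earlier results of these data known. Named regions are the 8 risen and 8 fallen with the highest level, the 6 and 6 strong ones with the largest change, the genes with most changed regions including ties, the fullest 1 Mb windows, and list genes with a changed region. Python 3.11.15, pandas 2.3.3 and pysam 0.24.0 were used.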

Additional observations from a re-analysis of the deposited data

Results flagged for a closer look

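Each value here compares the change between genotypes across subsets. At 3-fold or more and an adjusted p under 0.1 in limma, it differed between iNKT1 and iNKT2 cells at 1216 regions and between iNKT1 and iNKT17 cells at 640. Among the named regions, the log2 change in iNKT1 minus that in iNKT2 cells was 3.93 at Megf10, 3.17 at Myo1d, 2.55 near Vcpkmt, 1.95 at Map3k14, 1.95 at Gm20431, 1.92 at Ehd1, 1.82 at Ubash3b, 1.81 at Klf12 and 1.80 at Osbpl3. It was 2.49 at BC004004, where the region fell in both subsets and fell further in iNKT2 cells. Against iNKT17 cells, the difference was 2.88 at Megf10, 2.78 at Myo1d and -1.95 at Trio. Gm20431, Ehd1 and Osbpl3 in iNKT2 and Trio in iNKT17 cells were under the accessible level and not tested there, so that they entered only through iNKT1 cells. These regions were named for their change or level in iNKT1 cells, so the size of the differences is partly set by that choice. Groups of 2 libraries are too small for a test of single outlying libraries.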

How the results depend on the processing

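Of 28 named regions, 0 changed direction under any alternative, and 13 lost a threshold under at least 1 (28 of 308 values). The main counts were 625 regions at 3-fold, of which 77.1% rose, and 240 strong regions, of which 63.8% rose. The 3-fold count was 413 with a mean of at least 5 over the 4 iNKT1 libraries, 1254 (60.0% risen) with no filter, 388 (80.7%) and 26 (73.1%) with pseudocounts of 1 and 5, 2877 (55.1%) after renewed quantile normalization, and 1928 (68.6%) at 2-fold. With strong regions from 20 or from 100 there were 1067 or 29. The promoter share of changed regions was 7.36% (35.1% of all tested), and 12.0% (41.8%) or 5.12% (27.3%) with promoters of 2000 or 500 bp. List genes with a changed region numbered 47, and 74 with 50 kb on either side or 3 with promoter regions alone. With only the 4 iNKT1 libraries fitted, 698 regions (75.9% risen) changed at 3-fold and 281 strong regions changed. In that limma fit the adjusted p was 0.000527 at Bcas3, 0.000526 at Asb2, 0.000347 at Osbpl3 and 0.000369 at Ehd1. The causes of these differences were not tested.

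Leaving out single iNKT1 libraries, where the lone library is assumed to vary like the other groups, gave 411 to 710 regions (72.4% to 79.3% risen) and 134 to 294 strong regions (51.5% to 63.3% risen). It gave 806 to 1248 regions that differed from iNKT2 and 278 to 619 that differed from iNKT17 cells. The risen regions that were also higher in iNKT2 cells made up 17.1% to 24.6%, and in iNKT17 cells 8.70% to 12.7%. The fallen regions that were also lower made up 37.4% to 42.9% in iNKT2 and 34.7% to 47.7% in iNKT17 cells.

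For those shared changes, alternatives chosen after seeing the data gave other values. The risen share in iNKT2 cells was 24.9% with the mean over the 4 libraries, 12.5% (1 of 8) with a pseudocount of 5 and 13.1% after renewed quantile normalization. The fallen share there was 32.5% with no filter, 75.0% and 85.7% (6 of 7) with pseudocounts of 1 and 5, and 13.5% after renewed quantile normalization. In iNKT17 cells the risen share was 9.03% with no filter, 30.0% (3 of 10) with a pseudocount of 5 and 3.87% after quantile normalization, and the fallen share 17.8% with no filter, 69.7% and 100% (4 of 4) with the pseudocounts and 5.19% after quantile normalization.

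The sources used here do not say what libraries with the same number share. Their deviations from the group means correlated positively in all 15 pairs of groups (0.123 to 0.366, the highest between the iNKT1 genotypes). With the replicate block, 657 regions changed at 3-fold and 260 strong regions changed, the counts that differed from iNKT2 and iNKT17 cells were 1375 and 817, and the shares of risen and fallen regions that changed the same way in iNKT17 cells were 18.6% and 51.2%.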
